A study of Mus musculus with 6 samples.

Results

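The calbindins and neuronal calcium sensors are EF-hand proteins, small proteins whose helix-loop-helix units each can bind a calcium ion. The genes Calb1 (calbindin), Calb2 (calretinin), Pvalb (parvalbumin), Hpcal1, Hpcal4, Hpca (hippocalcin), Ncald (neurocalcin delta), Vsnl1 (visinin-like 1), Ncs1 and Rcvrn (recoverin) were taken as 10 members of 18193 genes that had a probe set with 1 gene symbol. The platform's annotation gave them 19 probe sets, and all 19 are described. The set was chosen by family, with the falls of Calb1 and Hpcal1 in this same contrast already known. The differences between groups are therefore a description of the members, and their fitted p-values are no independent test of them.

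Gene expression was measured in mouse cerebral cortex on 6 Affymetrix arrays. Wild type mice gave 3 arrays, and mice labelled Egr1/Egr3 double knockout gave the other 3. Both genes encode transcription factors with zinc fingers that neurons switch on rapidly when they are active. The labels state no strain, age, sex, pooling or construction of the alleles, nor whether replicates were separate animals, and the p-values then reflect array-to-array spread alone, which may be technical.

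Calbindin, calretinin and parvalbumin are cytosolic buffers. They take up calcium that enters during firing and so shape the height and length of calcium signals, and each marks a class of cortical interneurons. Calbindin is also made by pyramidal neurons of the upper cortical layers. The neuronal calcium sensors, such as hippocalcin and the visinin-like proteins, carry a myristoyl lipid at the amino terminus. In hippocalcin, neurocalcin and recoverin, calcium binding pushes this lipid out so that the protein moves to membranes.

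Array medians lay between 36.2 and 39.6 signal units. The brighter Egr3 probe set read 1189, 2669.6 and 924 in wild type replicates 1 to 3 and 339, 369.9 and 507 in the knockout-labelled arrays. Egr1 went the other way, at 1247, 2054 and 1429.6 against 2116, 2647 and 2657, so the second group is called knockout-labelled throughout. Double knockout replicate 1 carries a sample title worded as in the wild type group. Double knockout replicate 2 came from a female (Xist at 3139.8 signal units, and at most 42.5 elsewhere). Spiked controls in wild type replicate 1 stood at 0.406 of their median elsewhere. Gapdh control signal at the 3' end over that at the 5' end was 0.806 to 0.873 in wild type and 0.881 to 0.9497 in the knockout-labelled arrays. The same ratio of the Actb controls overlapped, at 1.58 to 1.95 and 1.68 to 1.89. The part of RNA quality in the results was not tested.

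Of the 19 member probe sets 17, from 9 genes, passed the brightness filter and entered the fit. Calb1 fell on 2 of its 4 probe sets and Hpcal1 on its only probe set, at a limma adjusted p under 0.05. None rose, and 14 tested probe sets did not pass. Of all 22518 tested probe sets 1.02% passed, 0.591% as falls and 0.426% as rises. Since the members were put together with this contrast known, nothing is read from that share. No overlap between groups was seen for 7 of the 17 tested member probe sets, 5 lower and 2 higher in the knockout-labelled arrays, against 22.3% of all tested probe sets. The lower ones include Calb1 probe sets and that of Hpcal1, whose falls were known, and the 2 higher ones are both of Vsnl1. The median log2 difference was -0.16 over the tested member probe sets and 0.0093 over all tested probe sets. Nothing is read from these values either, for the same reason.

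**Figure D1:**
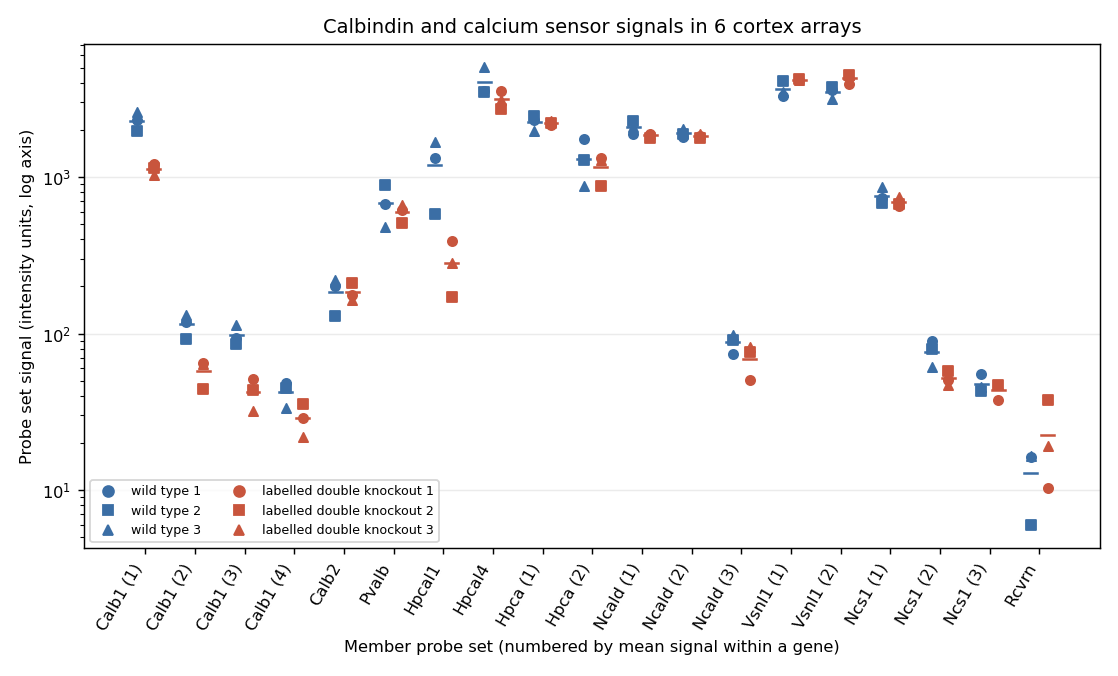
Signal of each of the 19 member probe sets (log axis, intensity units) in the 3 wild type arrays and the 3 knockout-labelled arrays, with bars at the group means. The groups stand apart for the 3 brighter Calb1 probe sets and for Hpcal1, where wild type replicate 2 is the lowest wild type array.

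Calb1, the calbindin gene, was lower in every array labelled double knockout on its brightest probe set (1417504_at). Its signal was 2319, 1958 and 2600.2 across wild type replicates 1 to 3 and 1209, 1146 and 1032 in the knockout-labelled arrays. The groups were clearly apart, since the lowest wild type array stood 1.62 times above the highest of the others. The log2 difference was -1.005 (SE 0.12, 95% interval -1.28 to -0.73, limma adjusted p = 0.00913), which places the level at 49.8% of wild type on the log2(signal + 16) scale. The replicates lay close together, with an SD of the log2 signal of 0.20 in wild type and 0.11 in the knockout-labelled arrays.

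The dimmer Calb1 probe sets lay lower too. The probe set 1448738_at read 93.5, 85.5 and 113 in wild type, against 51.2, 43.5 and 32.1 in the knockout-labelled arrays, and fell by 0.97 on the log2 scale (SE 0.18, limma adjusted p = 0.0388). The probe set 1456934_at read 119, 92.8 and 131 against 64.5, 44.2 and 63.7, with no overlap, and missed the threshold (log2 -0.83, SE 0.18, limma adjusted p = 0.0619). The dimmest, 1458836_at, lay below the filter and was not tested. It read 48.6, 44.6 and 33.5 against 28.8, 35.2 and 21.9, where double knockout replicate 2 stood above wild type replicate 3.

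For the brightest Calb1 probe set the call held in 14 of 17 alternatives, and the log2 difference lay between -1.11 and -0.91 in all of them. It was lost without double knockout replicate 3 (log2 -0.94, limma adjusted p = 0.0534), with no brightness filter (adjusted p = 0.0818) and with wild type replicate 1 left out together with double knockout replicate 2 (log2 -1.004, adjusted p = 0.167). The adjusted p ranged from 0.00274 to 0.167. Wild type replicates 1 and 3 and double knockout replicates 2 and 3 each ended the call of 1448738_at when left out (limma adjusted p = 0.0875, 0.0852, 0.137 and 0.151), in a range of 0.0275 to 0.251. It was lost under the replicate block as well (0.0612). In contrast 1456934_at passed without wild type replicate 2 (log2 -0.95, limma adjusted p = 0.0468) and with a robust trend (adjusted p = 0.0496).

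The other buffers gave no such difference. Calb2, the calretinin gene, read 200.4, 130.3 and 221 in wild type, against 176, 211 and 164 in the knockout-labelled arrays, and the groups overlapped throughout. Its log2 difference was 0.02 (SE 0.19, 95% interval -0.39 to 0.43, limma adjusted p = 0.969). Its sign turned in 4 alternatives, one being the fit without wild type replicate 2 (log2 -0.19), the array with the lowest Calb2 signal. Pvalb, the parvalbumin gene of fast-spiking interneurons, read 672, 895 and 478 in wild type, against 619.6, 505 and 662 in the knockout-labelled arrays. All 3 of the latter lay inside the wild type range (log2 -0.16, SE 0.20, 95% interval -0.60 to 0.29, limma adjusted p = 0.743). The sign turned without wild type replicate 2 (log2 0.060), where Pvalb was brightest.

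Hpcal1, a sensor of the hippocalcin and visinin-like group, differed most among the members. Its probe set (1448812_at) read 1333, 582 and 1680.4 in wild type replicates 1 to 3 and 391, 171 and 283 in the knockout-labelled arrays. The groups did not overlap, and wild type replicate 2 stood 1.49 times above double knockout replicate 1. The log2 difference was -1.97 (SE 0.36, 95% interval -2.78 to -1.16, limma adjusted p = 0.0407), a level of 25.5% of wild type, and 11 of the tested probe sets fell further.

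The replicates of Hpcal1 were far apart within each group. In wild type its highest array stood 2.89 times above its lowest, and among the knockout-labelled arrays 2.28 times. The SD of its log2 signal over wild type arrays was 0.79, against a median of 0.15 over the 2920 tested probe sets within 0.5 of its mean log2 signal, of which 0.651% had an SD at least as large. The call of Hpcal1 held in 9 of 17 alternatives, while the log2 difference stayed between -2.42 (without wild type replicate 2) and -1.53. Leaving out a wild type array ended it for replicate 1 (log2 -1.83, limma adjusted p = 0.112) and replicate 3 (-1.66, 0.0753). Leaving out a knockout-labelled array ended it for replicate 2 (-1.67, limma adjusted p = 0.160) and replicate 3 (-2.01, 0.134). It was also lost with no filter, no intensity trend, a robust trend or without that pair of arrays, in a limma adjusted p range of 0.00131 to 0.314.

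**Figure D2:**
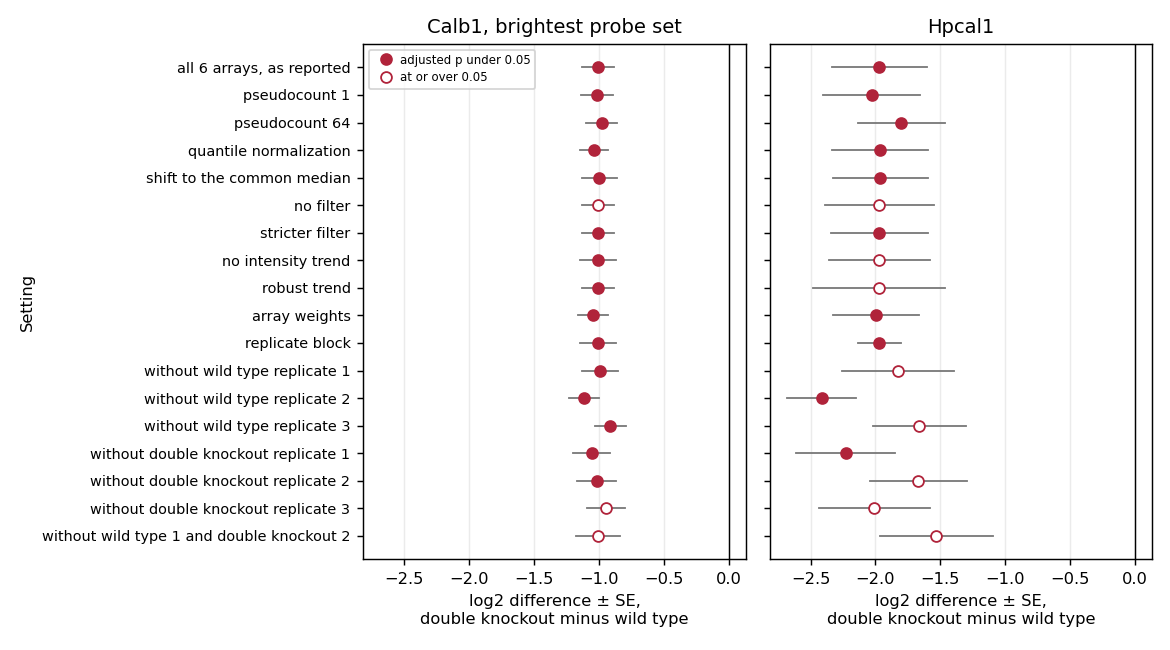
Log2 difference (knockout-labelled arrays minus wild type) with its SE for the brightest Calb1 probe set and for Hpcal1 under each processing setting; filled points have a limma adjusted p under 0.05. Calb1 stays between -1.11 and -0.91 and Hpcal1 between -2.42 and -1.53, so direction held in every setting shown. The calls did not, being kept in 14 of 17 alternatives for Calb1 and 9 of 17 for Hpcal1.

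Among other sensors of the same branch as Hpcal1, none passed. Hpcal4 read 3545, 3518 and 5053 in wild type, against 3559, 2735 and 3097 in the knockout-labelled arrays. Double knockout replicate 1 lay above wild type replicates 1 and 2, so the groups overlapped (log2 -0.35, SE 0.16, 95% interval -0.71 to -0.00095, limma adjusted p = 0.300). With quantile normalization the Hpcal4 difference was -0.47 (limma adjusted p = 0.0892), the lowest adjusted p of its 17 alternatives. Hpca, the hippocalcin gene, read 2331, 2443 and 1978 against 2138, 2217 and 2281 on its brighter probe set. These values were interleaved (log2 -0.02, SE 0.11, 95% interval -0.26 to 0.22, limma adjusted p = 0.955). The other Hpca probe set varied more between arrays, at 1748, 1283 and 873 against 1329.9, 882 and 1289.8 (log2 -0.12, SE 0.23, limma adjusted p = 0.834). The interval of the brighter Hpca probe set reaches no lower than -0.26 and that of the other no lower than -0.64. That of Hpcal1 reaches no higher than -1.16. The difference between the genes was not tested itself, since these values come from the contrast that chose the set.

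Hpcal1, Hpcal4 and Hpca are relatives, of which Hpcal1 passed the threshold. The sequences before their starts are shown with a motif that includes letters Egr proteins are known to bind. The motif GCGNGGGCG was searched on both strands in the 250 bases before each RefSeq start in GRCm38.p6, the 50 bases after it being left out. It includes GCGTGGGCG and GCGGGGGCG, the usual Egr site, and was picked after results of these data were known. Of the members 6 had a window in that table, with 10 windows in all, and 3 genes held the motif, each on the strand of the gene. Calb1, Calb2, Ncald and Rcvrn had no window, so the motif was not searched before them. The windows below run 5′ to 3′ along the gene, and capitals mark the motif.
Hpcal1 chr12:17690559-17690808, plus strand: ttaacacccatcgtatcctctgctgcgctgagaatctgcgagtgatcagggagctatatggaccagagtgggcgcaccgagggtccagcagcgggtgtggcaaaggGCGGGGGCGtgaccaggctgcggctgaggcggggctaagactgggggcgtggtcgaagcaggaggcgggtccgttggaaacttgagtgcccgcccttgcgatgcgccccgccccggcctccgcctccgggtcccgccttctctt
Hpcal4 chr4:123183254-123183503, plus strand: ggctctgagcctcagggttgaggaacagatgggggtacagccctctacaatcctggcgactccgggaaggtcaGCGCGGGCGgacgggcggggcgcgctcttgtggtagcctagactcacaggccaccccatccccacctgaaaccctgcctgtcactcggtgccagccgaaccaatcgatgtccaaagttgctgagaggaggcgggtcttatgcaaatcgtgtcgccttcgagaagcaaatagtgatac
Hpca chr4:129121304-129121553, minus strand: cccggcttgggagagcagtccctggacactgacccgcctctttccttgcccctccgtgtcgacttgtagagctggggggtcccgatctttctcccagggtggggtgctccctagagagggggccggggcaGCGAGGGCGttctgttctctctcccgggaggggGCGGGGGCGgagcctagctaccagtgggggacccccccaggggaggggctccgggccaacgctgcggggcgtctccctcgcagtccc

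In the Hpcal1 window the match GCGGGGGCG lay 136 to 144 bases before the start. Hpcal4 held GCGCGGGCG at 169 to 177 bases, and Hpca held GCGGGGGCG at 79 to 87 bases and GCGAGGGCG at 112 to 120 bases. All but the GCGAGGGCG match overlapped GGGCGG, the letters bound by Sp1, which 32.7% of all windows held. GCGNGGGCG stood in 4.70% of all 32851 windows and in 10.7% of the 5409 windows within 5 percentage points of the GC content of the Hpcal1 window, which was 66.8%. GCGNGGGCG was thus present before Hpcal1, which fell, and before Hpcal4 and Hpca, which did not pass. Of the members with a window, only Hpcal1 and Hpca held GCGGGGGCG, and none held GCGTGGGCG. The other Hpca windows held no GCGNGGGCG. A part of the motif in the differences was not tested. No window of Pvalb, Vsnl1 or Ncs1 held GCGNGGGCG. A match is a description of the sequence and not a binding site shown by these data.

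The remaining sensors were measured mostly at bright probe sets and none passed. Ncald, whose product can stimulate guanylate cyclases, read 1882, 2269 and 2099 in wild type, against 1882, 1783 and 1890.0 in the knockout-labelled arrays on its brightest probe set. Wild type replicate 1 fell inside the range of the other group (log2 -0.17, SE 0.10, 95% interval -0.39 to 0.06, limma adjusted p = 0.454). The other Ncald probe sets differed by -0.05 and -0.30 and overlapped as well.

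Vsnl1, the gene of visinin-like protein 1, was the only member whose knockout-labelled arrays all read above wild type. One probe set read 3315, 4108 and 3497 in wild type, against 4146, 4260.1 and 4145 in the other group, so wild type replicate 2 came close to that group. The other read 3598, 3758 and 3148 against 3921, 4456 and 4504. The log2 differences were 0.21 (SE 0.11, limma adjusted p = 0.385) and 0.29 (SE 0.11, adjusted p = 0.230). With quantile normalization they shrank to 0.06 (limma adjusted p = 0.821) and 0.14 (adjusted p = 0.650), with the same sign.

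Ncs1, whose product regulates a phosphatidylinositol 4-kinase and receptor signalling, read 730.3, 685 and 859 in wild type, against 649, 673 and 747 in the knockout-labelled arrays on its brightest probe set. These groups overlapped (log2 -0.13, SE 0.11, 95% interval -0.38 to 0.12, limma adjusted p = 0.614). A dim Ncs1 probe set read 89.7, 79.5 and 61.1 against 50.3, 58.0 and 47.2, without overlap (log2 -0.44, SE 0.17, limma adjusted p = 0.228), and the dimmest differed by -0.09 and overlapped. Rcvrn, the recoverin gene of photoreceptors, was below the filter and not tested. It read 16.2, 5.94 and 16.6 in wild type, against 10.3, 37.6 and 19.1 in the knockout-labelled arrays, each under the median of its array, with double knockout replicate 2 close to its median of 37.9.

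**Figure D3:**
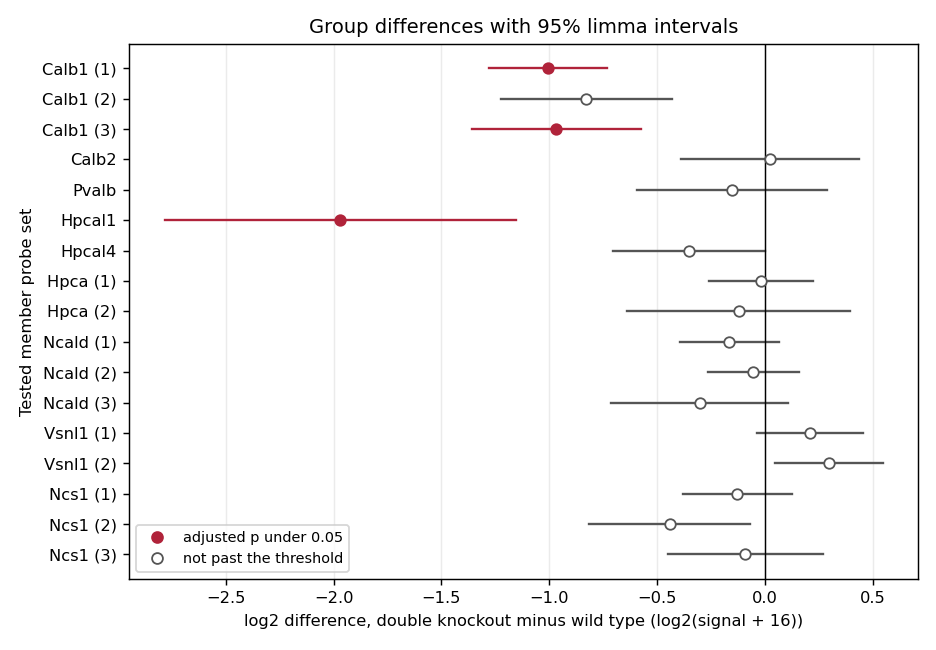
Log2 difference of each of the 17 tested member probe sets (knockout-labelled arrays minus wild type, log2(signal + 16)) with its 95% interval from limma; filled points passed an adjusted p of 0.05. The Hpcal1 interval (-2.78 to -1.16) is the widest. The intervals of Calb2, Pvalb and every Hpca and Ncald probe set span 0. So do those of the brighter Vsnl1 probe set and of the brightest and dimmest Ncs1 probe sets.

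Beyond the members, 79 tested genes of 4 lists of calcium handling genes held 2 that fell and none that rose. Of all 11053 genes with a tested probe set, each by its brightest, 1.22% passed, 0.715% lower and 0.507% higher. Both falls were EF-hand genes. Tesc, which encodes tescalcin, a calcium-binding regulator of sodium-proton exchange, read 569.5, 531 and 712 in wild type, against 351, 309.6 and 315 in the knockout-labelled arrays (log2 -0.85, SE 0.13, limma adjusted p = 0.0160). Its groups were well apart, and its other probe set fell by 0.86 on the log2 scale (limma adjusted p = 0.0280). Efhd2, which encodes an EF-hand protein that binds actin, read 3673, 4540.5 and 4009 against 2857, 2023 and 2414 (log2 -0.75, SE 0.14, limma adjusted p = 0.0420). On the dimmer Efhd2 probe set the log2 difference was -0.48, not past the threshold.

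Tesc lost the call without double knockout replicate 2 (limma adjusted p = 0.0919) or 3 (adjusted p = 0.0908). That of Efhd2 held in 1 of the 6 fits that left out an array, the one without double knockout replicate 1. Its call was also lost under the replicate block (adjusted p = 0.0718). In the other 5 of these fits, without wild type replicates 1, 2 and 3 and double knockout replicates 2 and 3, the limma adjusted p was 0.0676, 0.0707, 0.0597, 0.167 and 0.171.

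Of 28 tested genes in the list of other EF-hand genes, 21 were lower and 7 higher. Over all tested probe sets 48.4% were lower. The list's median log2 difference was -0.17, against 0.0086 over all genes. Besides Tesc and Efhd2, 26 did not pass. Among 7 close relatives of the sensors, which include the potassium channel interacting proteins, the median was 0.01. Kcnip4 (log2 0.40, limma adjusted p = 0.173) and Kcnip3 (log2 -0.44, adjusted p = 0.260) came nearest to the threshold, in opposite directions.

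For 21 pumps, exchangers and release channels the median was 0.10, and none passed. Stim2, a sensor of calcium in the endoplasmic reticulum, read 343, 480.1 and 353 against 248, 262 and 274 (log2 -0.54, limma adjusted p = 0.101), without overlap. Slc8a1, a sodium-calcium exchanger, differed by -0.55 (limma adjusted p = 0.209) and overlapped, and it passed without wild type replicate 2. The exchanger Slc8a3, named after its values were seen, lay the other way, at 298, 107 and 289 against 330.4, 390.3 and 404 (log2 0.78, SE 0.30, limma adjusted p = 0.239). For 23 reported partners of the sensors and the myristoyl transferases the median was 0.10. Kcnd3, a potassium channel subunit, differed by -0.49 (limma adjusted p = 0.108) and Grk5, a receptor kinase, by -0.57 (adjusted p = 0.123). Both were below wild type in all 3 knockout-labelled arrays, and neither passed.

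**Figure D4:**
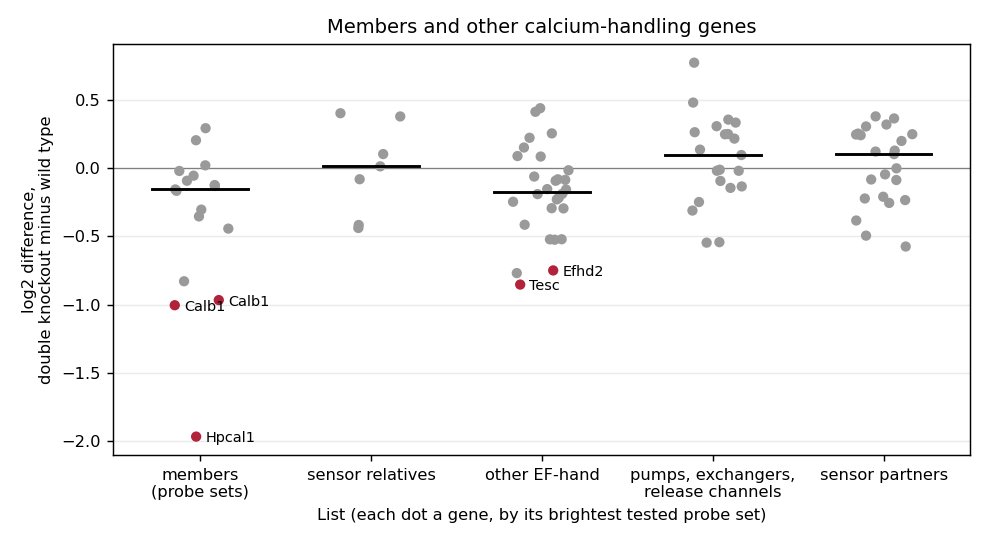
Log2 differences (knockout-labelled arrays minus wild type) of the 17 tested member probe sets and of the genes of 4 lists of calcium handling genes, each gene by its brightest tested probe set; bars are medians and coloured, named points passed an adjusted p of 0.05. Calb1, Hpcal1, Tesc and Efhd2 are the named falls, and the bar of the other EF-hand genes lies at -0.17.

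Marker lists of the cells and regions that express these genes are given beside the falls, and their part in them was not tested. Over all tested probe sets 48.4% were lower. Of 20 tested interneuron markers without the members, 13 were lower and 7 higher, with a median log2 difference of -0.09. The summed signal of this list was 13943 to 15079 in wild type and 13189 to 13873 in the knockout-labelled arrays. Vip alone of them passed, as a rise (log2 0.55, limma adjusted p = 0.0453), and lost the call in 5 of 6 fits with an array left out, all but that without wild type replicate 2. Of 12 upper layer markers 5 were lower and 7 higher, with a median of 0.01, and the list summed to 8466 to 10002 against 9573 to 11076. The list's 1 call, Lmo4, was a rise (log2 0.60, limma adjusted p = 0.0442) and was lost in each of these 6 fits. Deep layer markers had a median of -0.02 over 12 genes. Fewer cells of a type and less RNA per cell cannot be told apart in such bulk RNA.

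By summed signal, the striatal and cerebellar lists of neighbouring tissue stood in the order of the Hpcal1 signal within both groups. Those of hippocampus, thalamus, olfactory bulb and choroid plexus did not. By the median log2 deviation of tested genes from the wild type mean, the choroid plexus list kept that order and the others did not. The striatal median was -0.011, -0.14 and -0.16 in double knockout replicates 1 to 3. The cerebellar median, over 3 tested genes, was 0.13, -0.12 and -0.011 in wild type replicates 1 to 3. The striatal list, with 9 measured genes led by Penk and Pde10a, summed to 1795, 1359 and 2094 in wild type replicates 1 to 3 and to 1495, 1260.1 and 1347 in the knockout-labelled arrays. Its wild type replicate 2 fell among the knockout-labelled arrays. Penk, an opioid peptide gene of striatal neurons, read 724, 201 and 703 against 285, 178 and 185. Choroid plexus genes, 9 measured and led by Ttr, summed to 11456 in wild type replicate 3 and 4919 in double knockout replicate 1, the arrays with the highest Hpcal1 signal of each group, and to 203 to 508 in the rest, with wild type replicate 2 (508) above replicate 1 (263). The hippocampal list summed to 2354, 2089 and 2671 in wild type, against 1904, 2309 and 2002, the reverse of the Hpcal1 order in the knockout-labelled arrays. The cerebellar list summed to 625, 528 and 637 against 530.2, 406 and 434, and the thalamic list to 1388, 1499 and 1069 against 1377, 1588 and 1483. The 8 measured photoreceptor and pineal genes all lay below the filter, as Rcvrn did.

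Genes with the most similar pattern were ranked by the root mean square difference of log2 signals, each centred on its own mean over the 6 arrays. For Calb1 these were Pfkl, a phosphofructokinase of glycolysis, at 0.07, Msmo1, an enzyme of cholesterol synthesis, at 0.08, and Igfbp2, an insulin-like growth factor binding protein, and Tesc at 0.10 each. The median over all tested probe sets was 0.55. For Hpcal1 the nearest were Nrp2, a semaphorin receptor, at 0.33, Dcn, which encodes the matrix proteoglycan decorin, at 0.36, Frzb, a secreted Wnt antagonist, at 0.39, and Gpr83, a G protein-coupled receptor, at 0.42. The median there was 1.15, so the neighbours of Hpcal1 were less close than those of Calb1 on this scale.

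Dcn read 451, 173 and 907 in wild type, against 206, 101 and 126 in the knockout-labelled arrays, and Nrp2 read 130.3, 79.3 and 193 against 54.6, 24.0 and 38.2. On these probe sets both shared the order of the Hpcal1 signal within each group. Their choice by nearness to Hpcal1 in these same arrays favours such an order. The brightest Nrp2 probe set, which was not the nearest, read 179, 81.7 and 155 against 80.8, 51.3 and 80.4 and was highest in wild type replicate 1. Frzb read 173, 88.4 and 187 against 35.98, 34.2 and 40.2, and Gpr83 read 234, 160.1 and 221 against 72.9, 41.7 and 73.0. Their wild type arrays were lowest in replicate 2 as well, but Gpr83 was highest in wild type replicate 1, and both were highest in double knockout replicate 3 among the knockout-labelled arrays.

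**Figure D5:**
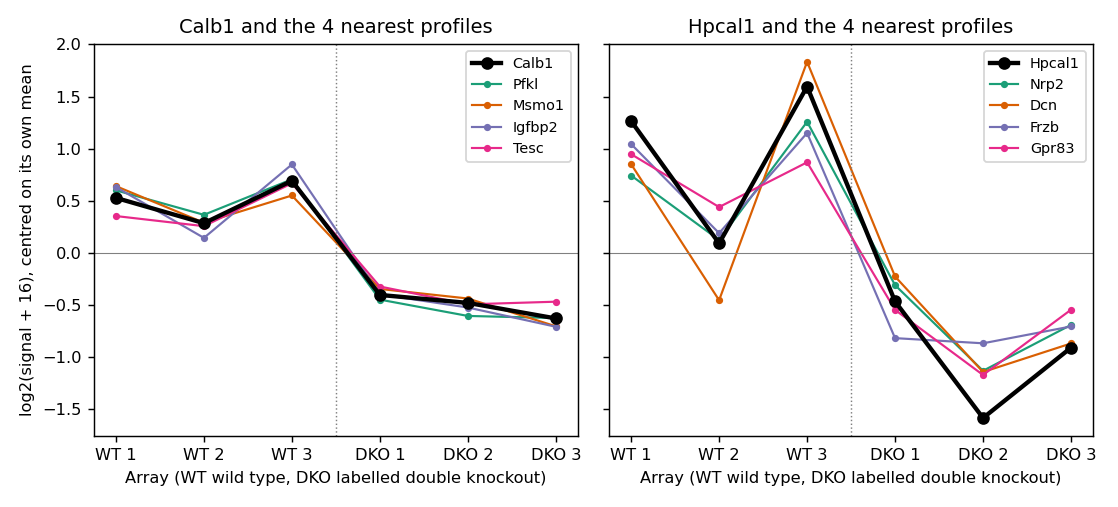
Log2(signal + 16) of Calb1 and Hpcal1 in the 6 arrays, each centred on its own mean, with the 4 tested genes of the smallest root mean square difference; lines only join the points of a gene and replicates have no order. Hpcal1 and its 4 neighbours are each lowest of the wild type arrays in replicate 2, which their choice from these same arrays favours. Calb1 spreads less within a group than Hpcal1.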

How the data were processed

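The deposited table holds linear probe set intensity values of 6 arrays, which the authors had summarised and scaled. Software and build are not given in the sources used here. The trimmed mean of each array was 150.0, which hides any change in total RNA. Every column was used. Probe sets were named by the platform's annotation, with symbols updated in a RefSeq table of GRCm38.p6.

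Signals under 1 were set to 1, and log2(signal + 16) was taken. Of 45037 probe sets, the 22518 with a mean above the median were tested with limma 3.58.1 in R 4.3.3 (group as the only term, intensity trend, Benjamini-Hochberg adjustment over all of them, threshold 0.05). The step was tested on simulated data. It recovered 9.2% of simulated log2 changes of 0.5, 64.4% of those of 1 and 81.6% of those of 2. A gene that did not pass is thus not shown to be unchanged. An exact permutation test of 3 against 3 cannot go below p = 0.1, so none was run. Plots were made in Python 3.11.15 (matplotlib 3.10.9).

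The members and lists were chosen with earlier results of these data known. The rule named every member, called or nearest genes of the pathway lists, the brightest markers and the 4 nearest profiles of Calb1 and Hpcal1. Alternatives were pseudocounts of 1 and 64, other scalings, filters and variance models, a replicate block, averaged probe sets of a gene and arrays left out.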

Additional observations from a re-analysis of the deposited data

How the results depend on the processing

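The 229 probe sets past the threshold became 10 with no filter (all 10 among the 229), 131 with no intensity trend (126 shared) and 9 (7 shared) without both wild type replicate 1, with dim spiked controls, and double knockout replicate 2, of a female. With 1 array left out the count lay between 33 (without double knockout replicate 3) and 300.0 (without wild type replicate 2). The 3 member probe sets became 0 with no filter and 0 without both of these arrays, and 0 to 4 with 1 array left out. The 2 genes called in the calcium handling lists became 1 with a shift to the common median, 1 with no intensity trend, 1 with averaged probe sets of a gene, 0 with no filter, 0 without both arrays, and 0 to 2 with 1 array left out. With no filter 45037 probe sets were tested.

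The Calb1 log2 difference was -1.005 with no filter (limma adjusted p = 0.0818) and -1.004 without both arrays (0.167), and -1.11 to -0.91 with 1 array left out. That of Hpcal1 was -1.97 with no filter (0.196), with no intensity trend (0.0767) and with a robust trend (0.178), -1.53 without both arrays (0.314), and -2.42 to -1.66 with 1 array left out. The causes were not tested. Signs turned only for differences that never passed. Calb2 was at -0.042 with array weights, -0.0031 without both arrays and -0.19 to 0.16 with 1 array left out. Pvalb was at -0.38 to 0.060, the brighter Hpca probe set at 0.0067 without both arrays and -0.11 to 0.042, and the other at 0.30 without both arrays and -0.38 to 0.12.

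Same-numbered arrays of the groups did not deviate together over the tested probe sets (r = -0.15, 0.0013 and -0.10). With only 3 arrays a group this cannot exclude a pairing, and the labels state none. The SE of the Hpcal1 difference was 0.17 with the replicate block and 0.36 without it. With the replicate block 182 probe sets passed, 140 of them among the 229. Member probe sets gave 2, and the calcium handling lists gave 2 genes, Tesc and Necab2. Calls lost under it were those of Efhd2 (limma adjusted p = 0.0718), Vip (0.0632), Lmo4 (0.0639) and Zbtb20 (0.0993). The limma adjusted p was then 0.0125 for Calb1 and 0.00131 for Hpcal1, and 0.0612 for the Calb1 probe set 1448738_at. Only 3 arrays a group limit the precision, and no detection call or background value was used here to judge dim probe sets such as that of Rcvrn.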

Other observations

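Markers of the other cells and regions gave the following values, log2 differences being knockout-labelled minus wild type. Aqp4, the water channel of astrocyte endfeet, fell by 0.96 on its brightest probe set (limma adjusted p = 0.0139), and on its other 2 tested probe sets. It lost the call without wild type replicate 1 (limma adjusted p = 0.0570) or double knockout replicate 3 (0.0674). The brightest astrocyte markers Slc1a2, a glutamate transporter, and Aldoc differed by 0.23 and 0.22, and the list's median over 9 genes was -0.02. Zbtb20, a transcription factor of hippocampal neurons, fell by 0.52 on its brightest probe set (limma adjusted p = 0.0475), the 1 that passed of 8 tested. It lost the call in all 6 fits with an array left out. The brighter Spock1 and Wfs1 of the hippocampal list differed by -0.04 and -0.16.

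No other marker in the lists passed, apart from Vip and Lmo4. The 9 tested microglia genes all lay lower (median -0.39), with Csf1r at -0.18 and C1qa at -0.47. Over all tested probe sets 48.4% lay lower. The 8 oligodendrocyte genes had a median of 0.13, with Cnp at 0.28 and Mobp at -0.05. Medians were 0.10 for thalamus, with Rora at 0.27 and Slc17a6 at 0.0023, -0.21 for olfactory bulb, with Nmb at -0.21 and Doc2g at -0.23, and -0.42 for cerebellum, with Cbln1 at -0.22 and Zic1 at -0.42. In the cortical lists Gad1 differed by 0.01, Cck by -0.21, Mef2c by 0.18, Pcp4 by -0.09 and Crym by 0.86. Of the photoreceptor list, Sag read 34.1, 38.2 and 30.4 in wild type against 24.4, 52.7 and 27.5, above the array median in replicate 2 of both groups. Aanat read 14.4, 46.2 and 10.7 against 35.7, 21.5 and 13.7, above it in wild type replicate 2.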
